A study of Mus musculus with 9 samples.

Results

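The ligands, receptors and Smads of the transforming growth factor beta (TGF-beta) pathway were followed through reversible ureteral obstruction of the mouse kidney. The set held 10 genes of the 17741 tested. They were the ligand genes Tgfb1, Tgfb2 and Tgfb3, the receptor genes Tgfbr1 and Tgfbr2, the signal transducers Smad2 and Smad3, the inhibitors Smad7 and Skil, and Tgfbi, a matrix gene named for its induction by TGF-beta. They were chosen by name, as the members of the pathway, with earlier results of these data known. Every array probe whose RefSeq accession belongs to one of these symbols was examined. This gave 13 probes, and all 10 genes had a probe that passed the detection filter.

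TGF-beta is secreted in a latent form, bound to its own propeptide and to matrix proteins, and must be released before it can act. The active ligand joins the type II receptor (Tgfbr2) to the type I receptor (Tgfbr1), which phosphorylates SMAD2 and SMAD3 so that they enter the nucleus with SMAD4. Smad7 and SnoN, the product of Skil, restrain the signal and are themselves targets of it. In the kidney the pathway is best known for driving matrix production by interstitial fibroblasts in obstruction and other chronic injury.

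RNA came from the whole left kidney of 9 male mice aged 10 weeks, 1 mouse and 1 single-colour Agilent array each. All mice, the controls included, were ISAM mice on a mixed strain background, with genotype Epo-/- and the transgene 3.3K-Epo3'-Tg458, a model of anaemia from erythropoietin deficiency. No array came from a mouse with intact Epo, so no response of such a kidney was measured. In the clip arm (3 mice) a vascular clip had closed the left ureter for 2 days, and in the release arm (3 mice, labelled ClipR-14) it had then been off for 12 days. The control arm joined 2 sham-treated mice with 1 untreated mouse. For the controls the labels give no collection day, so surgery and elapsed time cannot be told apart from clip or release in comparisons with them. The labels number the 9 kidneys separately and say no more of their source, and the p-values measure the spread between these few mice.

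Levels are log2 of the processed signal over the array's 75th percentile, so a level of 0 marks that percentile, and a difference of 1 is a doubling. A level says nothing about one gene against another, because each probe binds with its own strength. That percentile was 320 to 439 intensity units, 52.0% to 57.5% of an array's probes stood well above background, and 0 spots were saturated. Every measured marker of proximal tubule, thick limb, collecting duct, podocyte and endothelium was above background on at least 1 array. Each of 3 slides carried 1 array of every arm, so differences could also be read within a slide, and slide 3, which held the untreated mouse, was scanned on the other of 2 dates. All 9 arrays correlated positively across genes, at 0.923 to 0.938 between clip and control arrays and at 0.977 to 0.986 between release and control arrays, where genes are not independent replicates. The median difference of all genes was -0.09 for clip minus control on this scale, -0.02 after quantile normalization and 0.10 after normexp background correction, and each member's difference is best read against it. For release minus control these medians were -0.01, 0.00 and -0.02.

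Promoter windows were looked up for 8 members (those of Smad2 and Smad7 were not analysed here), and the RefSeq table of build GRCm38.p6 held an entry for 6, all but Tgfb3 and Skil. The 250 bases before the annotated start were searched on both strands for the Smad box CAGAC, the AP-1 site TGANTCA, the GC box GGGCGG and the TATA letters TATAA. Among 32851 such windows in the table, 42.2% held the Smad box, 6.75% the AP-1 site, 32.7% the GC box and 22.8% the TATA letters, and the median GC content was 52.4%. Windows of 4 genes that rose in the clip arm are printed, 2 ligands, a receptor and Tgfbi. Capitals mark motif matches on either strand, and no matches overlap. The windows lie at chr7:25686752-25687001 on the plus strand (Tgfb1), chr1:186705990-186706239 on the minus strand (Tgfb2), chr9:116175364-116175613 on the minus strand (Tgfbr2) and chr13:56609336-56609585 on the plus strand (Tgfbi).
Tgfb1: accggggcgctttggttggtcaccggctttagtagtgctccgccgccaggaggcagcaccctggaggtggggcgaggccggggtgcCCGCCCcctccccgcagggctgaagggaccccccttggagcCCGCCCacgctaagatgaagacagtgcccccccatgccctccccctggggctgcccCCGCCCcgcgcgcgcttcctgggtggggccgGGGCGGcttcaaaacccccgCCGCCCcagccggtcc
Tgfb2: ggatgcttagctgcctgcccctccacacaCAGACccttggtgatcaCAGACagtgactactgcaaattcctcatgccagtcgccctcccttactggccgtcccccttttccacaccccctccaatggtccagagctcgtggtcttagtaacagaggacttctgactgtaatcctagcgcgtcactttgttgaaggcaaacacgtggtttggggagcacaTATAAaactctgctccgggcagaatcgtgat
Tgfbr2: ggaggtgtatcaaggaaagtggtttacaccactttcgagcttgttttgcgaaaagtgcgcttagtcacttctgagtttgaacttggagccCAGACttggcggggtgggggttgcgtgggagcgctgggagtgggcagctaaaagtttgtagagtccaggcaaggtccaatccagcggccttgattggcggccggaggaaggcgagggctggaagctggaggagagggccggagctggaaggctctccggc
Tgfbi: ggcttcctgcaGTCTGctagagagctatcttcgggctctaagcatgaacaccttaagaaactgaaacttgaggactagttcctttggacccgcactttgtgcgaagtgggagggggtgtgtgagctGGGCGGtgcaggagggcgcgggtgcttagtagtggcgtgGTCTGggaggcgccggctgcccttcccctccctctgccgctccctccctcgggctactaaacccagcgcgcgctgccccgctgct

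The Tgfb1 window was 75.2% G or C and held 5 GC boxes, with no Smad box and no TATA letters. In contrast the Tgfb2 window, at 53.6% GC, held 2 Smad boxes and 1 TATA match close to the start and no GC box. The Tgfbr2 window held 1 Smad box, and that of Tgfbi 2 Smad boxes and 1 GC box. Of the windows not printed, that at the first Tgfbr1 start and that of Smad3 each held 2 GC boxes and no Smad box, and a second Tgfbr1 start had 1 Smad box. None of these windows held the AP-1 letters. A match describes the letters only.

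After 2 days of obstruction, 7 of the 10 genes were higher in clip than in control kidneys and 0 were lower. All 3 ligands, both receptors, Smad3 and Tgfbi rose, by 1.22-fold (Tgfbr1) to 5.47-fold (Tgfbi), while Smad2, Smad7 and Skil did not pass the test. Over all genes tested, 21.4% were called higher and 27.5% lower in this comparison. The arms did not overlap for 7 members, against 58.6% of all genes. The members' median difference was 0.67 on the log2 scale. Calls were made with limma at a Benjamini-Hochberg adjusted p under 0.05 over all genes. For each of the 7 genes the clip array was above the control array on all 3 slides.

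**Figure D1:**
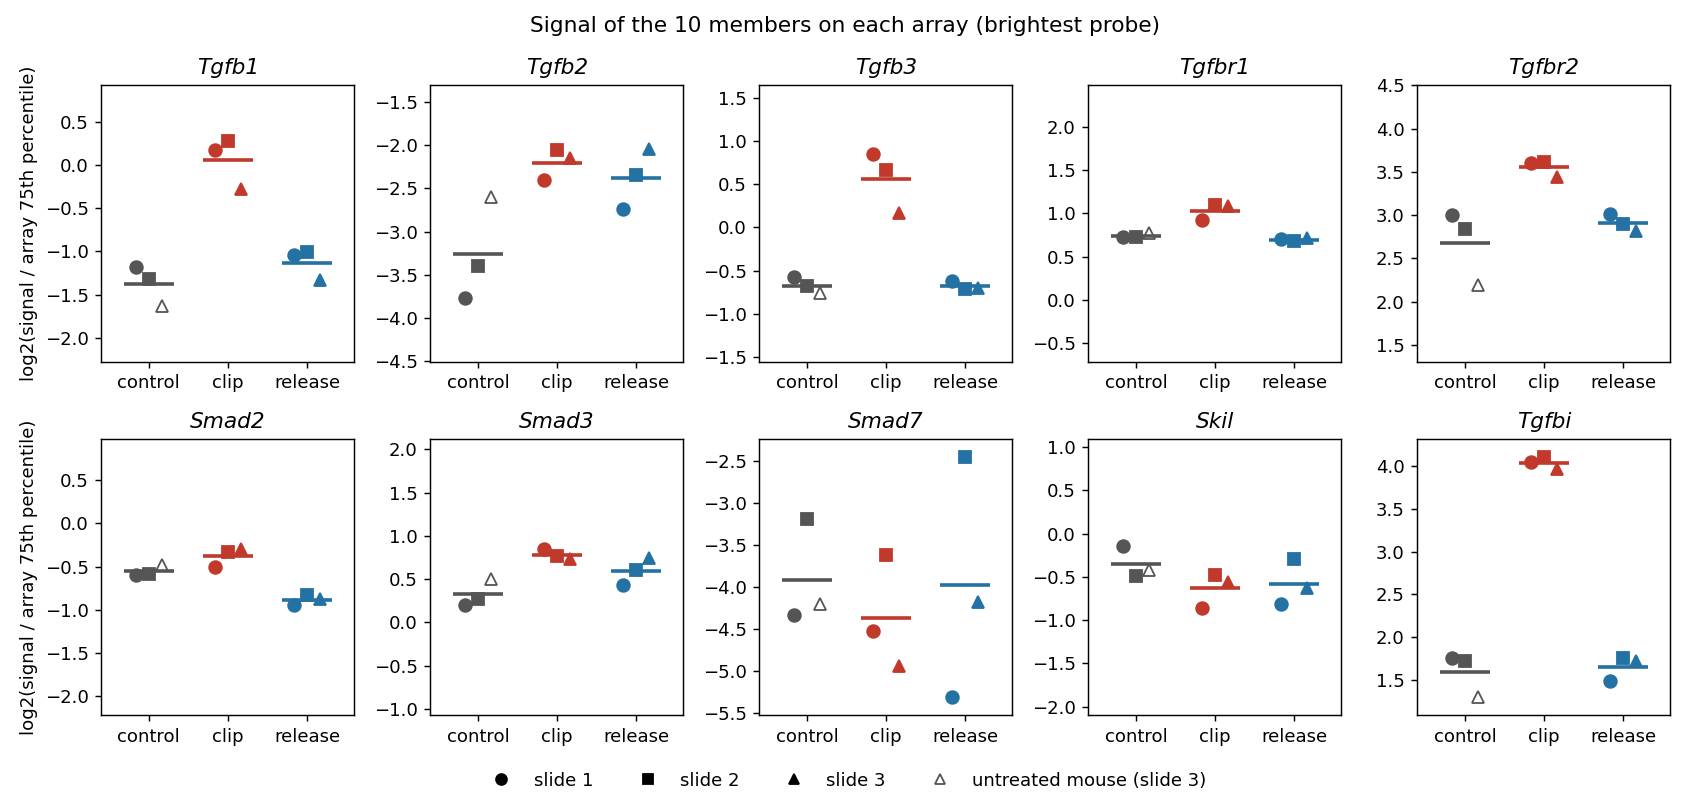
Level of each of the 10 genes on each of the 9 arrays, as log2 of signal over the array's 75th percentile, by arm, with marker shape for the slide, an open triangle for the untreated mouse and a line for the arm mean. The vertical axes differ between panels because levels cannot be compared between probes. Clip arrays stand above all control arrays for 7 genes, while release arrays of Tgfb2 stay near the clip arrays and those of Smad2 lie below every other array.

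Tgfb1, the isoform most studied in renal fibrosis, was at -1.18 and -1.32 in the sham mice and -1.63 in the untreated mouse. Its level was 0.17, 0.27 and -0.28 in the clip mice, and -1.05, -1.01 and -1.33 in the release mice. Every clip array lay above all the others, while release and control arrays overlapped. The clip arm was higher than control by 1.43 ± 0.18 (SE of the log2 difference, n = 3 per arm), or 2.69-fold, with an adjusted p of 0.000287. Within slides the difference was 1.35, 1.59 and 1.34. This probe is printed 10 times on each array, and its level is the mean of those spots. In the release arm Tgfb1 had fallen by 1.18 ± 0.18 from clip (adjusted p = 0.00109). Against control it stood 0.24 ± 0.18 higher, with a 95% interval of -0.17 to 0.66 and an adjusted p of 0.463.

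Tgfb3, the third isoform, moved in nearly the same way. Control mice were at -0.58, -0.68 and -0.76, clip mice at 0.85, 0.66 and 0.17, and release mice at -0.62, -0.71 and -0.71. The clip arrays were the 3 highest, and the release values fell within the range of the controls. Clip exceeded control by 1.24 ± 0.16, a 2.35-fold rise (adjusted p = 0.000368), and release fell by 1.24 ± 0.16 from clip (adjusted p = 0.000524). Release minus control was -0.01 ± 0.16, with an interval of -0.38 to 0.37, and this difference turned to 0.08 with normexp.

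Tgfb2 was not called lower in release than in clip. Its levels were -3.77 and -3.39 in the sham mice, -2.60 in the untreated mouse, -2.41, -2.06 and -2.14 in clip, and -2.74, -2.35 and -2.04 in release. Clip arrays were above all controls, and the untreated mouse lay above 1 release mouse. Clip exceeded control by 1.05 ± 0.29, or 2.07-fold (adjusted p = 0.0172). On slides 1 and 2 the difference was 1.36 and 1.34, and on slide 3, against the untreated mouse, it was 0.46. This call did not hold without sham mouse 1 (adjusted p = 0.0508), without sham mouse 2 (0.0530) or without clip mouse 2 (0.0577), nor with the replicate number as a block (0.0626). Against the sham mice alone the rise was 1.38.

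Release minus clip for Tgfb2 was -0.17 ± 0.29, with an interval of -0.85 to 0.50. Against control, release was 0.88 ± 0.29 higher, with an interval of 0.21 to 1.55 and an adjusted p of 0.145, so it missed the threshold over all genes. With the slide as a block the same difference had an adjusted p of 0.0485, and with the sham mice alone as control it was 1.20 with an adjusted p of 0.0478. With normexp it was 0.29. Release kidneys therefore had a Tgfb2 level that could be separated neither from clip nor, without these settings, from control. Tgfb2 was a dim probe, well above background on all 9 arrays but near the dimmest such signal, which lay between -4.68 and -3.85 per array.

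Tgfbr2 encodes the receptor that binds the ligand first. Its level was 3.0 and 2.84 in the sham mice, 2.19 in the untreated mouse, 3.61, 3.61 and 3.44 in clip, and 3.01, 2.89 and 2.82 in release. The clip mice were close together and above all others, and the untreated mouse was the lowest of the 9. Clip exceeded control by 0.88 ± 0.19, or 1.83-fold (adjusted p = 0.00555), with 0.61, 0.77 and 1.24 on slides 1, 2 and 3. Against the sham mice alone the rise was 0.63. Release was lower than clip by a difference of -0.65 ± 0.19 (adjusted p = 0.0269), and this call was lost with normexp (adjusted p = 0.159) and without clip mouse 1 (0.0753), clip mouse 2 (0.0793), release mouse 2 (0.0706) or release mouse 3 (0.0744). The release arm stood 0.23 ± 0.19 above control (adjusted p = 0.522), a difference of -0.01 against the sham mice alone.

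Tgfbr1, the type I receptor kinase, moved over a much smaller range. Control mice lay at 0.73, 0.72 and 0.78, clip mice at 0.92, 1.09 and 1.08, and release mice at 0.70, 0.68 and 0.71. All 3 arms were separate, with release just below control. The clip rise was 0.29 ± 0.08, or 1.22-fold (adjusted p = 0.0193), and was 0.19, 0.37 and 0.31 on the 3 slides. It was not called with normexp (0.19, adjusted p = 0.239), without the filter on dim probes (0.0628), or without sham mouse 1 (0.0519), sham mouse 2 (0.0611), clip mouse 2 (0.0673) or clip mouse 3 (0.0549). Release was lower than clip, at -0.34 ± 0.08 (adjusted p = 0.0121, and 0.238 with normexp). Release minus control was -0.05 ± 0.08, with an interval of -0.24 to 0.14 (adjusted p = 0.777). A second Tgfbr1 probe was well above background on 0 of 9 arrays and gave no usable level.

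The receptor-activated Smads carry the signal to the nucleus. Smad3 levels were 0.20 and 0.27 in the sham mice, 0.51 in the untreated mouse, 0.85, 0.77 and 0.73 in clip, and 0.44, 0.60 and 0.74 in release. Clip arrays were above all controls, whereas release arrays overlapped both other arms. Clip exceeded control by 0.46 ± 0.12, or 1.37-fold (adjusted p = 0.0116), with 0.65, 0.50 and 0.22 on slides 1, 2 and 3. The call was lost with normexp (0.31, adjusted p = 0.113) and when both Smad3 probes were averaged (0.31, adjusted p = 0.0867). The second probe was dim, above background on 7 of 9 arrays, and its clip difference was 0.17. Its release minus control was -0.18, with 1 release array above background, so the order of the arms differed between the probes. For the brighter probe, release minus control was 0.27 ± 0.12 (adjusted p = 0.231) and release minus clip -0.19 ± 0.12 (adjusted p = 0.236). Neither neighbour in that probe's order of control, release, clip was separated from release.

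Smad2 followed another order, with release lowest. Its level was -0.60, -0.59 and -0.48 in control, -0.50, -0.33 and -0.30 in clip, and -0.95, -0.83 and -0.88 in release. Clip and control overlapped, and all release mice lay below the other 6. Clip minus control was 0.18 ± 0.09, with an interval of -0.03 to 0.39 (adjusted p = 0.144). Release was lower than clip, at -0.51 ± 0.09, a 1.42-fold difference with an adjusted p of 0.00264. From control to release the difference was -0.33 ± 0.09, with an interval of -0.54 to -0.12, and its adjusted p of 0.0969 missed the threshold, while with the slide as a block it was 0.0484. On the 3 slides the release mouse was below the control mouse by differences of -0.35, -0.24 and -0.40.

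The inhibitors were not called in any comparison. Skil encodes SnoN, which holds SMAD target genes silent. It was at -0.14, -0.49 and -0.41 in control, -0.86, -0.47 and -0.56 in clip, and -0.81, -0.29 and -0.63 in release. The arms overlapped throughout, and clip minus control was -0.28 ± 0.17, with an interval of -0.67 to 0.10 (adjusted p = 0.199). A second Skil probe was above background on 0 of 9 arrays.

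Smad7, which blocks the type I receptor, was too dim on this array to compare. It was well above background on 4 of 9 arrays, 1 in control, 1 in clip and 2 in release. Levels ran from -4.33 to -3.19 in control, from -4.94 to -3.62 in clip and from -5.31 to -2.45 in release. Its clip minus control difference was -0.45 ± 0.69, with an interval of -2.02 to 1.12, and it turned to 0.42 with normexp. A change of that size in either direction was not detectable at this signal.

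Tgfbi, which encodes a secreted matrix protein that binds collagens and integrins, changed most among the 10 genes in both called comparisons. It was at 1.76 and 1.72 in the sham mice, 1.30 in the untreated mouse, 4.05, 4.11 and 3.96 in clip, and 1.48, 1.76 and 1.72 in release. The clip mice stood more than 2 log2 units above every other mouse, and release and control overlapped. The rise was 2.45 ± 0.14, or 5.47-fold, with an adjusted p of 6.6e-06, and was 2.29, 2.39 and 2.67 on the slides. Release fell by 2.39 ± 0.14 from clip (5.23-fold, adjusted p = 1.12e-05). Release and control differed by 0.06 ± 0.14, with an interval of -0.26 to 0.39, a value that was -0.05 with median scaling and -0.08 against the sham mice alone.

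**Figure D2:**
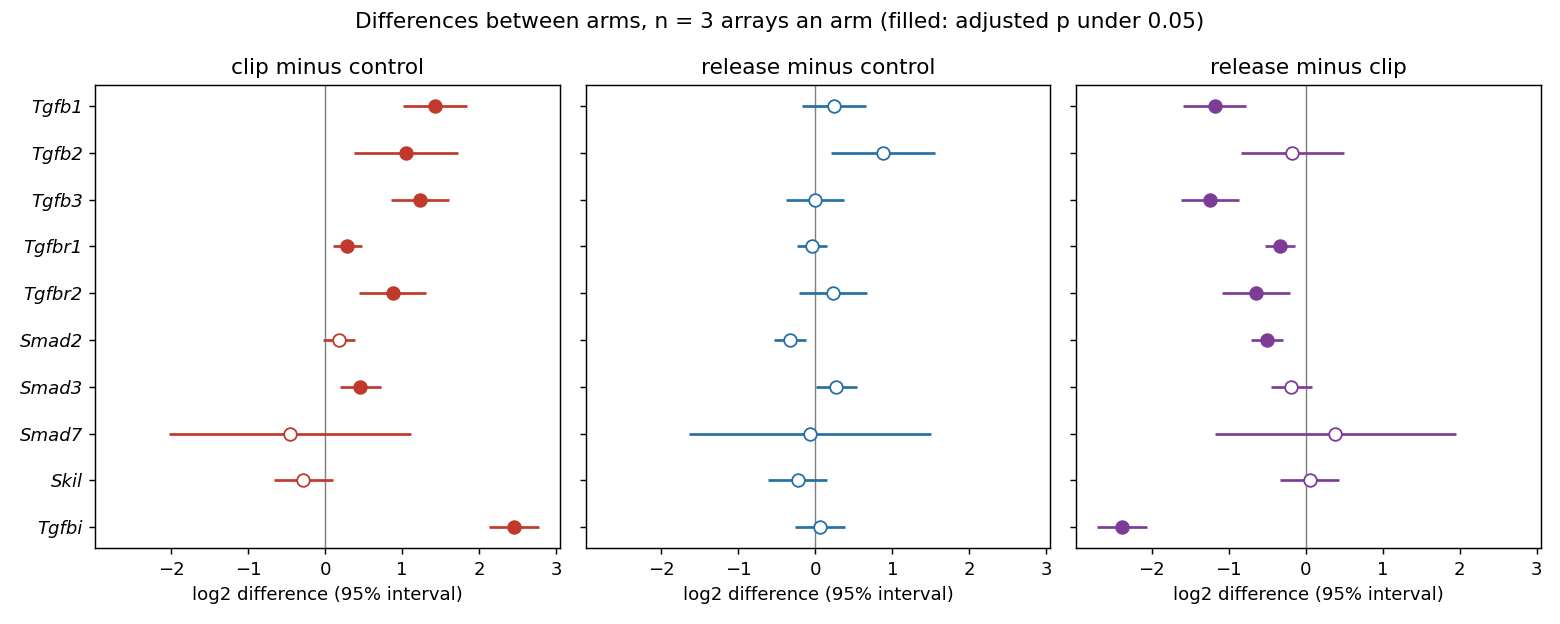
Log2 differences with 95% intervals for the 10 genes in each of the 3 comparisons, with n = 3 arrays per arm and filled points for an adjusted p under 0.05. In the first panel 7 points are filled, in the second none, and in the third 6. The wide bars of Smad7 belong to a probe above background on 4 of 9 arrays, whose sign turns with normexp in all 3 panels.

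After release, limma called 0 of 10 genes against control in either direction, where 1.46% of all genes were called higher and 0.372% lower. At an unadjusted p under 0.05, 3 members passed (Tgfb2, Smad2 and Smad3), as did 3811 of all genes. The slide block called 1 member higher (Tgfb2) and 1 lower (Smad2). The arms did not overlap for 2 members, Tgfbr1 and Smad2, both with release below control, against 27.2% of all genes. The members' median difference was 0.03. Against clip, 6 genes had fallen by release and 0 had risen (0 also at an unadjusted p under 0.05), where 17.4% of all genes were called lower and 23.5% higher. The arms were separate for 6 members, against 54.8% of all genes, and the median was -0.42 beside 0.08 for all genes. Those 6 were Tgfb1, Tgfb3, Tgfbr1, Tgfbr2, Smad2 and Tgfbi. The comparisons share arms, so their values are given side by side and no overlap between them is read as a result.

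The arms also differed in cell type markers, whose summed levels are signal over the 75th percentile. For the 13 measured macrophage and monocyte markers the sum was 12.0 to 14.4 in control, 48.0 to 54.7 in clip and 19.4 to 23.6 in release. Each of them was above background on at least 1 array, but Itgam, Lyz2 and Ccr2 were well above background on no control array. In clip 12 of these 13 were called higher. Of all genes 21.4% were called higher and 27.5% lower in this comparison. Adgre1, which encodes the macrophage antigen F4/80, rose by 1.50 in log2. The 12 fibroblast and myofibroblast markers summed to 45.7 to 55.6 in control, 194 to 259 in clip and 70.3 to 88.4 in release. Of these 9 were called higher in clip and 1 lower, with Pdgfra, a receptor of interstitial fibroblasts, up by 0.87 and Pdgfrb by 1.31. For proximal tubule, 9 of 10 markers were called lower in clip, and the sum went from 633 to 795 in control to 232 to 301 in clip and 573 to 769 in release. The sums for thick limb and distal tubule (425 to 484 in control, 155 to 190 in clip) and collecting duct (67.0 to 82.3, then 18.4 to 21.7) were also lowest in clip. Of the thick limb and distal markers 8 of 8 were called lower, with a median difference of -2.88. For collecting duct it was 5 of 8, with a median of -0.58. In whole kidney RNA, fewer cells of a type and less RNA per cell cannot be told apart. The part of these markers in the rises of Tgfb1, Tgfb3, Tgfbr2 and Tgfbi was not tested.

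**Figure D3:**
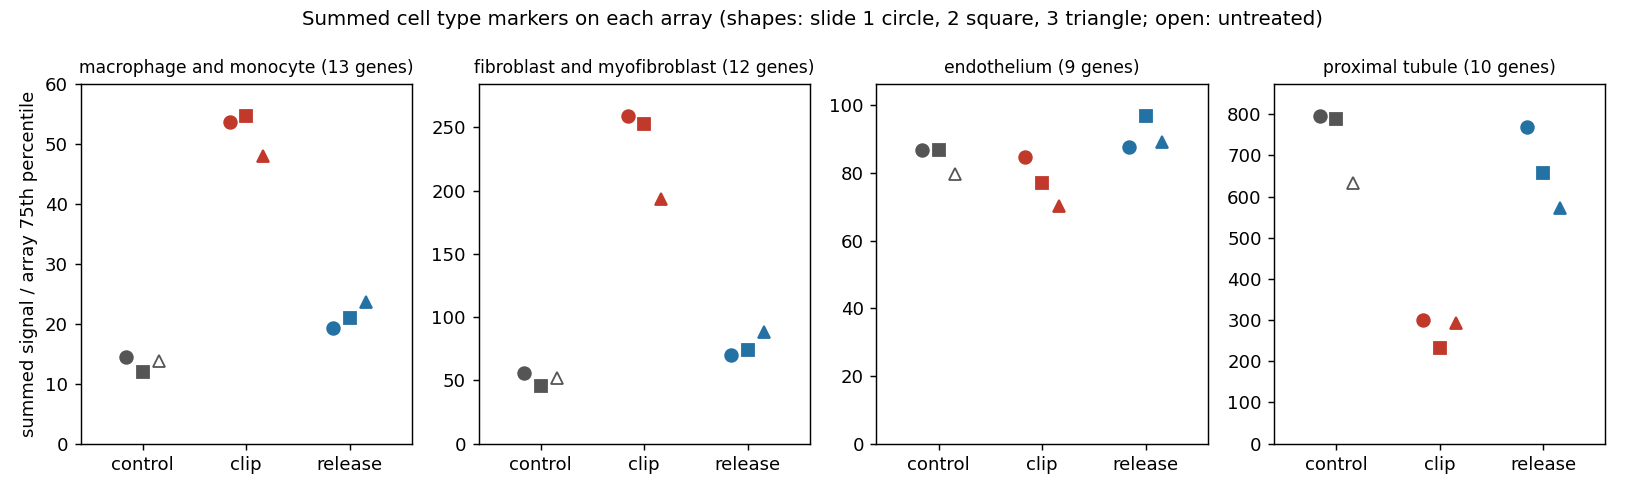
Summed signal over the array's 75th percentile for 4 lists of cell type markers on each array, with shapes for slides and the untreated mouse open. Macrophage and fibroblast sums are highest on the 3 clip arrays (48.0 to 54.7 and 194 to 259), proximal tubule sums are lowest there (232 to 301), and endothelial sums overlap between control and clip.

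Endothelium, the cell type in which TGF-beta receptors work with the co-receptor endoglin, had marker sums that overlapped between control and clip. Its 9 markers summed to 79.6 to 86.9 in control, 70.2 to 84.7 in clip and 87.7 to 96.7 in release. Urothelial markers summed to 1.01 to 2.01 in control, 7.87 to 8.25 in clip and 2.06 to 2.64 in release, with 2 of 6 called higher in clip and a median difference of 0.18. The 7 measured T and NK cell markers summed to 0.726 to 0.954, 1.56 to 2.17 and 1.03 to 1.80 in the same order, and Cd4, Cd2 and Ncr1 were above background on no array. Platelets store TGF-beta 1, and the sums of platelet and erythroid markers overlapped widely, at 2.66 to 59.4, 29.5 to 46.2 and 20.8 to 48.5. These sums pool both cell types, so they do not describe platelets alone. Of the 7 measured markers 2 were called higher in clip and 1 lower, with a median difference of 1.74. Among them Pf4, a platelet chemokine, was higher in clip by 2.97, and Itga2b, a platelet integrin subunit, was lower (-1.24). The platelet genes Ppbp and Gp9 were well above background on no control array. Ppbp was at least 5.02-fold higher in clip, while Gp9 was dim in both arms, with means of -5.16 in control and -4.14 in clip. What these markers contribute to the ligand levels was not tested.

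Genes listed for the latent complex, activation and matrix binding were mostly higher in the clip arm together with the ligands. Of 20 measured genes of this list, 13 were called higher and 3 lower in clip, beside 21.4% and 27.5% of all genes, with a median of 0.88. Ltbp2, a latent TGF-beta binding protein family member found in elastic fibres, was on no control array well above background and was at least 14.7-fold higher in clip (adjusted p = 7.89e-05). Fbn1, the fibrillin that anchors latent complexes, rose by 1.65 ± 0.11, and Itgb3, an integrin subunit able to activate latent ligand, by 1.53 ± 0.19. Lower were Fmod, a proteoglycan that binds TGF-beta (-1.49 ± 0.24), Ltbp4 (-0.85 ± 0.17) and Furin, the protease that cleaves the propeptide (-0.34 ± 0.09). By release 11 of the 20 were called lower than clip and 3 higher, beside 17.4% and 23.5% of all genes. Against control 1 was called, Fbn1, which stayed 0.83 ± 0.11 higher (adjusted p = 0.0212), where 1.46% of all genes were called higher. This call was lost with normexp, without the filter, with averaged probes, with only those 2 arms in the fit and on the first scan date.

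**Figure D4:**
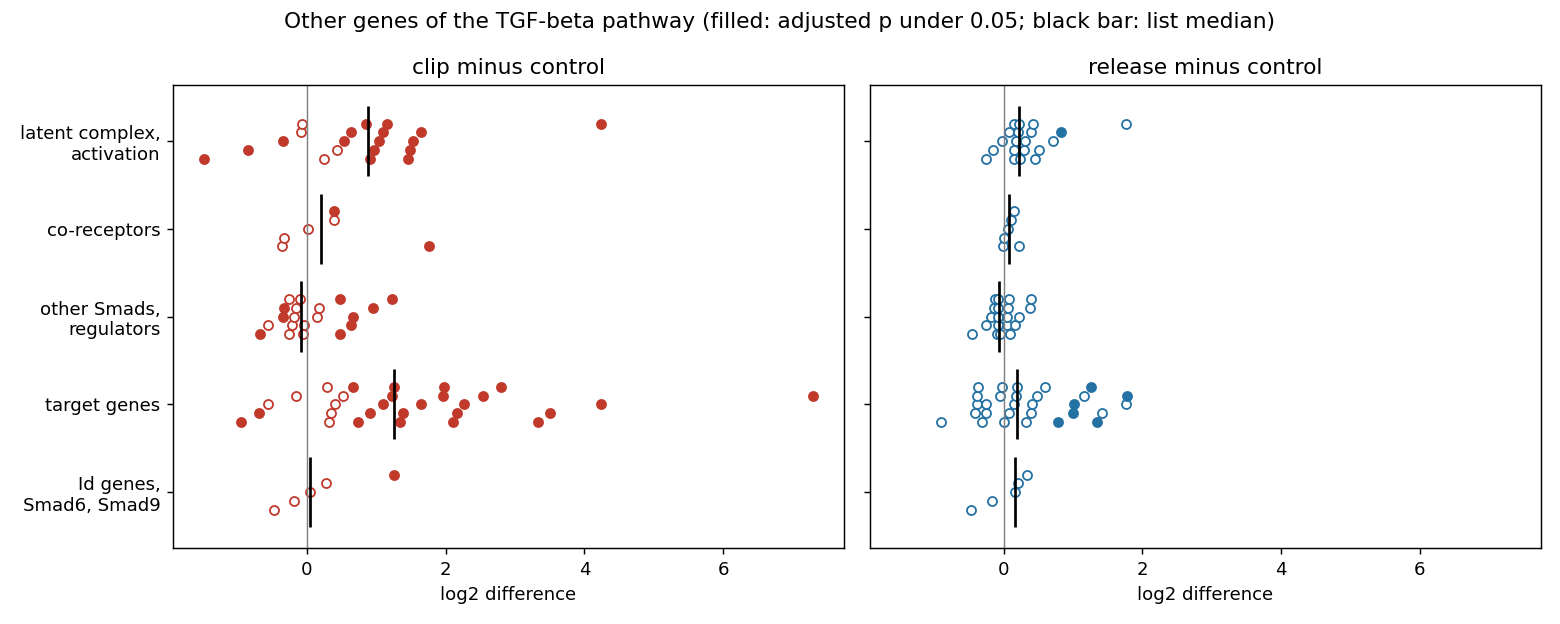
Log2 difference of each measured gene in 5 lists of the TGF-beta pathway, for clip minus control and release minus control, filled where the adjusted p is under 0.05, with a bar at the list median. The latent complex and target lists have medians of 0.88 and 1.25 in clip, and the other 3 lists lie between -0.08 and 0.20.

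Co-receptors and intracellular regulators were mixed. Of 6 co-receptors and related receptors, 2 were called higher in clip, and 1 with normexp, without the filter, with the filter for all 9 arrays, with sham alone as control or on the first scan date. The 2 called genes were Cd109, a surface protein that binds TGF-beta and dampens its receptor (1.76 ± 0.19), and Acvr1, a type I receptor of the family (0.39 ± 0.11). Among 20 other Smads, partners and regulators, 6 were called higher and 3 lower (6 with the slide block and 1 with normexp), beside 21.4% and 27.5% of all genes. The list's median of -0.08 was close to the -0.09 of all genes. The co-repressors Tgif1 (1.22 ± 0.16) and Tgif2 (0.96 ± 0.11) and the inhibitor Pmepa1 (0.66 ± 0.14) rose. The ubiquitin ligases Wwp1 (-0.67 ± 0.10), Nedd4l (-0.34 ± 0.11) and Smurf2 (-0.33 ± 0.10), which target Smads and receptors, fell. Smurf1, a ubiquitin ligase of the same list but not among its 3 largest risers, was called higher (0.48 ± 0.09, adjusted p = 0.00216). Against control, release had 0 calls in both lists.

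Known TGF-beta target genes were in large part higher in clip kidneys, as Tgfbi was. Of 29 measured targets, 20 were called higher and 2 lower, beside 21.4% and 27.5% of all genes. The count called lower was 1 with quantile normalization, without the filter on dim probes or with the replicate block. The list's median was 1.25, beside -0.09 for all genes. Timp1, an inhibitor of matrix metalloproteinases, was at -2.48, -3.22 and -2.69 in control, 4.54, 4.67 and 4.31 in clip, and -1.60, -1.22 and -0.23 in release. It was higher in clip by 7.30 ± 0.34 (adjusted p = 2.54e-06). Col3a1, a fibrillar collagen chain, rose by 3.50 ± 0.25 (adjusted p = 1.48e-05). Nox4, an oxidase abundant in tubules, was lower (-0.94 ± 0.13), as was Angptl4 (-0.69 ± 0.25, adjusted p = 0.0472). The Angptl4 arms overlapped. Acta2, Col1a1, Col3a1, Tagln and Postn of this list are also fibroblast markers above, and Ltbp2, Itgb6 and Thbs1 are also in the latent complex list.

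Ccn2, the connective tissue growth factor gene and often a readout of the pathway, was not called in clip, with a difference of -0.56 ± 0.28 (adjusted p = 0.13). It is named here after its value was seen. Of the Id genes and Smad6, targets of the related BMP branch, 1 of 5 measured was called higher in clip, beside 21.4% of all genes. It was Id3 (1.25 ± 0.36, adjusted p = 0.0198). By release 20 of the 29 TGF-beta targets were called lower than clip and 1 higher, beside 17.4% and 23.5% of all genes. Against control 6 were still called higher, beside 1.46% of all genes, Timp1 (1.78 ± 0.34, adjusted p = 0.0451) and Col3a1 (1.34 ± 0.25, adjusted p = 0.043) among them. That count was 0 with normexp, without the filter on dim probes, with only those 2 arms in the fit and on the first scan date, 2 with quantile normalization, median scaling or the replicate block, and 8 with the slide block.

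The genes whose levels ran most like a member's were found by the root mean square (RMS) of the difference between gene-centred log2 levels over the 9 arrays. For Tgfb1, which spanned 1.90 log2 units, the nearest were Dysf (RMS 0.0661), Esyt1 (0.0768) and Ngfr (0.0978). Tgfb3 was nearest to the claudin gene Cldn3 (0.101), Pck2 (0.109) and Pfkfb1 (0.117). Tgfbr2 was nearest to Rnh1 (0.0758), Olfml3 (0.0792) and Cd99 (0.0951). Tgfbi, with a span of 2.81, ran nearest to Lig1 (0.117), a DNA ligase gene, Tubb5 (0.143) and Chrnb1 (0.146). The Tgfb2 pattern, with a span of 1.72, had neighbours at larger RMS, Spag6l (0.164), Fgl2 (0.186) and Phf11a (0.207). The control mean of Spag6l, -5.17, was below the dimmest signal well above background (-4.68 to -3.85 per array). Smad2 was nearest to Noc2l (0.0645), Smad3 to Parm1 (0.0562), Tgfbr1 to Hoxb2 (0.0448) and Skil to Mdm2 (0.105). Tgfbr1 spanned only 0.41, and an RMS is not comparable between members of different span. For Smad7 no gene came closer than Car1 (0.495).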

How the data were processed

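Processing is described for 9 single-colour arrays of kidney RNA. The deposited scanner files hold each spot's intensity, background-subtracted and detrended by Feature Extraction 10.7.3.1 per the file headers, with no scaling between arrays. The grid names build mm9, and no probe coordinates were used. The deposited table of log2 values was not used, because its rows do not match the probes they name. Flags of 0 or 1 for background, saturation and outliers were also deposited by the authors.

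Control spots (1639 of the 45018 on an array) were left out. Intensity over the array's 75th percentile was taken to log2, spots of a probe were averaged without outlier flags, and accessions were matched to RefSeq symbols (26690 of 41174 probes). A probe was kept when well above background on at least 3 of 9 arrays (23564 probes, of which 21 were left out for outlier flags). In all 17741 genes entered the tests, each by its brightest probe. Of these 13019 had a symbol, and the rest were counted by the array's sequence identifier, so some may repeat a gene. Shares of all genes include them.

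Linear models over all 9 arrays and 3 arms were run in limma (version 3.58.1, under R version 4.3.3) with Benjamini-Hochberg adjustment over all genes in each comparison and a threshold of 0.05. The fit was tested on simulated data. With 3 arrays an arm, their number limits the precision. "At least" folds set the brighter arm's mean against, per array, the higher of the dim probe's own signal and the lowest signal well above background. The members and lists were chosen with earlier results of these data known. Named genes are all members, up to 3 risers and 3 fallers per pathway list by size in clip minus control, up to 2 markers per list that moves with the members, and the 3 symbols nearest to each member. A gene of the target list is not reported here.

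Alternatives were normexp (offset 50), quantile and median scaling, other detection filters, averaged probes, slide and replicate blocks, fits of 2 arms, sham alone as control and leaving out each array. Normexp was planned on mean signals, and the median signal was used instead. Arrays on the same slide deviated together (correlations of 0.161 to 0.281 over 9 pairs), against -0.239 to 0.00288 between different slides (18 pairs).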

Additional observations from a re-analysis of the deposited data

How the results depend on the processing

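The clip calls of Tgfb1, Tgfb3, Tgfbr2 and Tgfbi and the fall of Tgfb1, Tgfb3, Smad2 and Tgfbi from clip to release held under all of the alternatives run and with each array left out. Several differences that were not called turned sign, and the causes were not tested. With normexp, Smad7 was 0.42 for clip minus control, 0.061 for release minus control and -0.36 for release minus clip, Tgfb3 release minus control was 0.079, and Skil release minus clip was -0.062. With median scaling, Tgfbi release minus control was -0.046 and Skil release minus clip -0.016. With sham alone as control, Tgfbr2 and Tgfbi release minus control were -0.012 and -0.083, and 1 member (Tgfb2) was called higher in release. With the slide block 1 member was called higher and 1 lower in release minus control. With only the arrays of the first scan date, an alternative chosen after seeing the data, Tgfbi release minus control was -0.12, and Tgfbr1 lost its calls in clip minus control (adjusted p = 0.0701) and release minus clip (0.0579).

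Whether the labels' replicate numbers pair the mice cannot be told from these arrays, because most same-numbered arrays also shared a slide. Deviations of same-numbered arrays correlated at -0.209 to 0.269 over 9 pairs. The negative values were those of untreated mouse 1, on slide 3, with clip mouse 1 and release mouse 1 on slide 1. With the replicate block Tgfb3 release minus control was 0.11, the clip rise of Tgfb2 was not called, and release minus control had 160 calls higher and 43 lower.

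Over all genes, normexp called 2519 higher and 3107 lower in clip minus control, 0 and 1 in release minus control, and 2270 and 1874 in release minus clip. For release minus control, quantile normalization called 87 higher and 30 lower, median scaling 86 and 93, no filter 11 and 1, the slide block 751 and 412, fits of only the 2 arms 0 and 0, and the first scan date 2 and 0, and a filter for signal above background on all 9 arrays called 122 lower. No filter called 10515 higher in release minus clip, where probes near background enter. Release minus clip was 3644 higher and 3719 lower with quantile normalization and 3495 and 3493 with median scaling.

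Leaving out each array in turn gave 2 to 264 genes higher and 0 to 79 lower in release minus control, and 0 to 1 members higher there. The 2 genes were left without release mouse 2. Members called higher in clip ranged from 5 to 7, and lower in release than clip from 5 to 6. Release minus control ranged from -0.050 to 0.042 for Tgfb3, -0.012 to 0.39 for Tgfbr2, -0.83 to 0.60 for Smad7 and -0.083 to 0.15 for Tgfbi. Release minus clip ranged from -0.34 to 0.0076 for Tgfb2, -0.38 to 1.05 for Smad7 and -0.093 to 0.17 for Skil. The deposited value table was not run as an alternative, since its rows and probes do not match. Smad7 was above background on 4 of 9 arrays, which limits what its values show.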
